A study of Mus musculus with 6 samples.

Results

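The T-bet, interferon gamma and IL-12 axis comprises the genes through which a T cell receives interleukin-12 and switches on the type 1 programme. The 8 genes taken here were Tbx21, Ifng, Stat4, Il12rb1, Il12rb2, Runx3, Hopx and Eomes, out of 19752 genes measured, and each was read from the single probe set that the platform annotation assigns to it alone. They were followed in regulatory T (Treg) cells, the Foxp3-expressing CD4 T cells that restrain immune responses, with 3 arrays from pancreas and 3 from spleen. All donors were 10-week-old prediabetic female NOD mice, a strain that develops autoimmune diabetes spontaneously. Both groups carried the same reporter, NOD.Foxp3-ires-gfp, in which green fluorescent protein marks Foxp3-expressing cells, and the labels give the genetic background of both as NOD NRB_SFB+. The cells were sorted as DAPI- CD4+ TCRb+ CD45+ GFP+ and their amplified RNA was read on Affymetrix Mouse Gene 1.0 ST arrays. The labels do not say whether an array holds the cells of 1 mouse or of a pool, so each p-value reflects the spread among these 6 arrays alone, and that spread may be technical.

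T-bet, the T-box transcription factor encoded by Tbx21, directs helper T cells towards the T helper 1 (Th1) fate and activates Ifng, the gene of interferon gamma. Interleukin-12 acts through a receptor built from the products of Il12rb1 and Il12rb2 and signals through the transcription factor encoded by Stat4. Treg cells can also take up T-bet during type 1 inflammation, while they keep Foxp3. The comparison asks how much of this programme Treg cells carry in the tissue under autoimmune attack, set against those of a lymphoid organ.

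The sequence upstream of the start site is shown for the members that passed the test, Tbx21 and Ifng, and for the others in which a searched motif was found. The promoter table of RefSeq (GRCm38.p6) held 7 of the 8 members, with no entry for Il12rb1. The 250 bases before each start were searched on both strands for the T-box motif TCACAC, for the Runx motif TGTGGT and for the STAT-binding element known as GAS, TTCNNNGAA. Of 32851 promoters of the same length, 12.3% held the T-box motif, 14.0% the Runx motif and 7.02% the GAS element, and no match overlapped another in the 4 sequences. Capitals mark the matches, and each sequence reads 5′ to 3′ on the strand of its gene.
Tbx21, minus strand, chr11:97115332-97115581: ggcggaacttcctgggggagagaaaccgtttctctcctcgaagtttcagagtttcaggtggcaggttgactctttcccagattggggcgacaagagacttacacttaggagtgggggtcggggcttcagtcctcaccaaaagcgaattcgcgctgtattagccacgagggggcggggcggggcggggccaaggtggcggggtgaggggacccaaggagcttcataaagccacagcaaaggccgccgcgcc
Ifng, plus strand, chr10:118440796-118441045: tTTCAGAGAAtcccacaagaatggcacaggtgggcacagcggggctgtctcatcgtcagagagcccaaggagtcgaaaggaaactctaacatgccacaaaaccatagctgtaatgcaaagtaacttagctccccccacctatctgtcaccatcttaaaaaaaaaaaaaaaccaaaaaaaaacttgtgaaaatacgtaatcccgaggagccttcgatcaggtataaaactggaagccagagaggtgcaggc
Il12rb2, minus strand, chr6:67376189-67376438: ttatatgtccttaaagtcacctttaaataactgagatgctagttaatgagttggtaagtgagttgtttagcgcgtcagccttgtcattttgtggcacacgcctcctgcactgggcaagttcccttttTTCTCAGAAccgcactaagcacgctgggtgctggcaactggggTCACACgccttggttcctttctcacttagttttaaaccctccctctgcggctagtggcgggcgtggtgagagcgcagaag
Runx3, plus strand, chr4:135120395-135120644: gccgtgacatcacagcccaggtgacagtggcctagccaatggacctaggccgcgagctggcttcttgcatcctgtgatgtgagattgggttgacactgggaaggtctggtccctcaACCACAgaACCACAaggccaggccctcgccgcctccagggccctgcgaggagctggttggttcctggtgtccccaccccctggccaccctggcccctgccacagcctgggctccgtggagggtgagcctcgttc
Ifng held 1 GAS element, beginning 249 bases before the start. Il12rb2 held 1 GAS element beginning 123 bases before its start and 1 T-box motif beginning 80 bases before it. The sequence of Runx3 held the Runx motif on its reverse strand at 134 and 126 bases before the start, while its other listed start had none. These letters were not found in the window of Tbx21, or in those of Stat4, Hopx and Eomes, whose sequences are not shown. A match is a run of letters and not a measured binding site.

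Tbx21 and Ifng were higher in pancreatic Treg cells, while the IL-12 receptor chains, Stat4, Runx3, Hopx and Eomes did not pass the test. By limma on log2 intensities, with p-values adjusted by Benjamini-Hochberg across every gene tested and called under 0.05, 2 of the 8 members were higher in pancreas, and 0.547% of all genes were. Of the 8 members, 0 were lower in pancreas, where 0.132% of all genes were, and 0 were lower at an unadjusted p under 0.05. At that unadjusted threshold 3.2% of all genes were higher in pancreas and 3.64% lower, the shares against which the unadjusted counts of gene groups given later are to be read. In either direction 0.678% of all genes passed. Counts past the test in the gene groups given later are to be read against 0.547% of all genes higher and 0.132% lower. The balance of directions over all genes moved with the setting, with 724 higher and 960 lower with array weights, and 46 higher and 44 lower without pancreas array 1. The arrays of the tissues did not overlap for 2 members, Tbx21 and Ifng, set against 10.4% of all genes, of which 4.57% were higher in pancreas and 5.81% lower. Of the 8 members, 7 lay above the background level on every array. That level, an intensity of 63.9 or 5.997 on the log2 scale, is the 95th percentile of the mean log2 values of 1194 olfactory and vomeronasal receptor genes, which T cells have no known use for. In bulk RNA, fewer cells that use a gene and less of its RNA per cell cannot be told apart.

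Tbx21 had an intensity of 370, 634 and 371 on the pancreas arrays 1 to 3, against 125, 175 and 200 on the spleen arrays 1 to 3. The lowest pancreas array stood above the highest spleen array, and pancreas array 2 stood apart from its own group. On the log2 scale this was 8.79 ± 0.45 in pancreas and 7.35 ± 0.35 in spleen (SD, n = 3 each). The fold change was 2.71, or 1.44 ± 0.25 (SE) on the log2 scale, with a 95% interval of 0.88 to 1.99 and a limma adjusted p of 0.0324. This call was lost when pancreas array 1 or 2, or spleen array 1 or 2, was left out (adjusted p of 0.0631, 0.105, 0.0835 and 0.0950), and with each array centred on its median (0.0942). The fold change stayed between 1.18 and 1.73 on the log2 scale over the 19 other settings tried.

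Ifng encodes the cytokine that defines the type 1 response and acts on macrophages and many other cells. Its intensity was 292, 242 and 246 on pancreas arrays 1 to 3, against 97.9, 127 and 93.1 on spleen arrays 1 to 3. The 3 pancreas arrays lay close together, and the groups were far from overlapping. The log2 values were 8.02 ± 0.15 in pancreas and 6.71 ± 0.24 in spleen (SD, n = 3 each), a 2.47-fold difference (1.31 ± 0.18 SE, 95% interval 0.91 to 1.70, limma adjusted p = 0.00952). Its call held without any single array, with an adjusted p of at most 0.0437. The exact two-sided permutation test over arrays gave p = 0.1 for Tbx21 and for Ifng (0.343 after adjustment over the 8 members), and 3 arrays against 3 allow no smaller p.

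**Figure D1:**
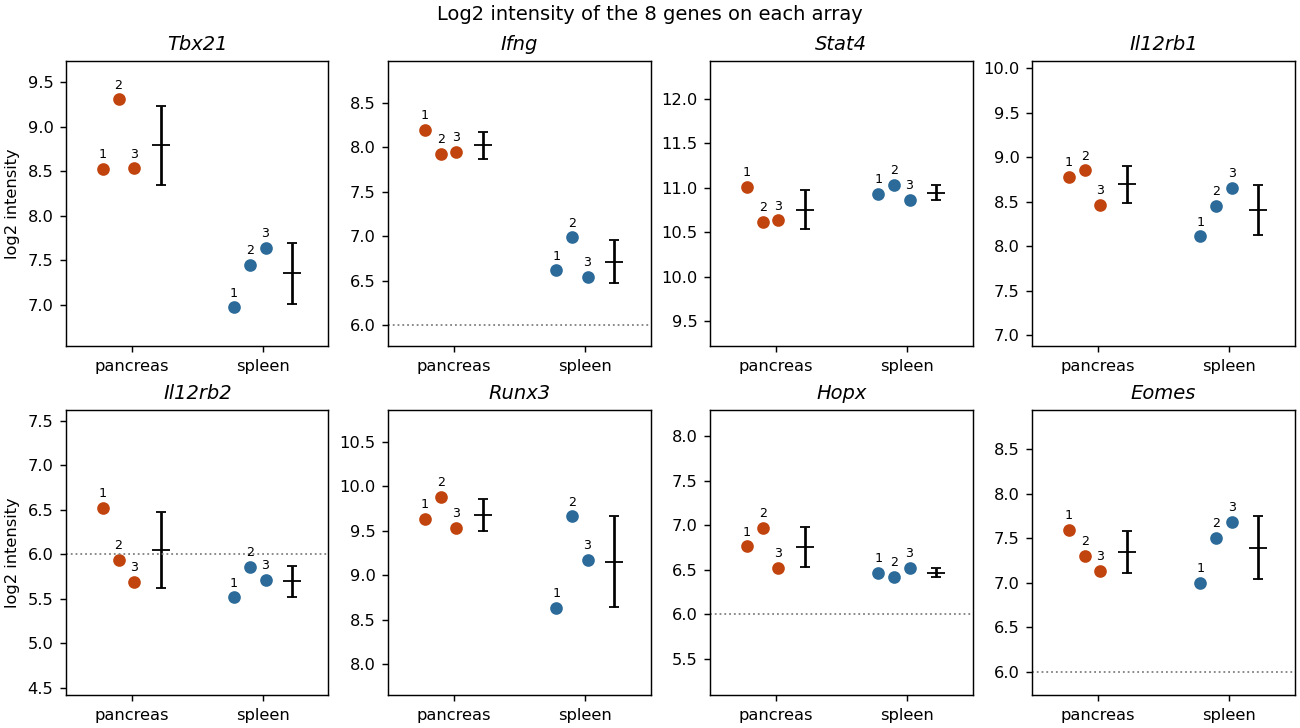
Log2 intensity of each of the 8 genes on the pancreas arrays (left, red) and the spleen arrays (right, blue), with the array number above each point, the mean ± SD of 3 arrays as black marks, and the background level of 5.997 as a dotted line where it falls in the panel. Every panel spans the same range of log2 units, and only in the panels of Tbx21 and Ifng do the 2 tissues not overlap.

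Neither IL-12 receptor chain passed the test. Il12rb1 encodes the chain that the IL-12 receptor shares with the IL-23 receptor. Its log2 intensity was 8.78, 8.85 and 8.47 on pancreas arrays 1 to 3, against 8.11, 8.46 and 8.66 on spleen arrays 1 to 3. The groups overlapped, and the difference was 0.29 ± 0.19 (SE) with an interval of -0.14 to 0.72. Il12rb2 encodes the chain that recruits STAT4 and is induced in Th1 cells. It was read at 6.52, 5.94 and 5.69 on pancreas arrays 1 to 3, against 5.51, 5.86 and 5.71 on spleen arrays 1 to 3, on the log2 scale. Only pancreas array 1 rose above background for Il12rb2, so 1 of 6 arrays measured it. Its fitted difference of 0.36 had an interval of -0.13 to 0.85, and a gene this close to background can show a smaller difference than the RNA holds.

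Stat4, the signal transducer of the IL-12 receptor, was well above background in both tissues. Its log2 intensity was 11.01, 10.62 and 10.64 on pancreas arrays 1 to 3, against 10.93, 11.03 and 10.87 on spleen arrays 1 to 3. Pancreas array 1 lay within the range of the spleen arrays and the other pancreas arrays lay under it. The difference of -0.19 ± 0.17 (SE) had an interval of -0.57 to 0.19 (adjusted p = 1.00), and that interval leaves out a rise of the size seen for Tbx21 or Ifng.

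Runx3 encodes a Runt-family transcription factor that acts with T-bet at Ifng and silences Il4 in Th1 cells. It had the largest difference among the members that did not pass. Its log2 intensity was 9.63, 9.88 and 9.53 on pancreas arrays 1 to 3, against 8.63, 9.66 and 9.17 on spleen arrays 1 to 3. The spleen arrays spread over more than the distance between the group means, with array 2 inside the pancreas range and array 1 far under it. The difference was 0.53 ± 0.25 (SE), with an interval of -0.02 to 1.07 and a limma adjusted p of 0.763. Without spleen array 1 it dropped to 0.26, and without spleen array 2 it was 0.78, neither past the test.

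Hopx encodes a homeodomain protein that does not bind DNA and is found in effector and memory Th1 cells of mice. It was at 6.76, 6.97 and 6.52 on pancreas arrays 1 to 3, against 6.46, 6.41 and 6.52 on spleen arrays 1 to 3, on the log2 scale. Pancreas arrays 1 and 2 stood above the spleen arrays and pancreas array 3 lay among them. The difference was 0.28 ± 0.17 (SE), with an interval of -0.09 to 0.66 and a limma adjusted p of 0.989. With array weights it was 0.47 and passed (limma adjusted p = 0.0274). That fit rests mostly on pancreas array 2 (weight 3.15) and spleen array 2 (4.01), which hold the highest pancreas value and the lowest spleen value of Hopx.

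Eomes encodes eomesodermin, the T-box relative of T-bet that is prominent in CD8 T and natural killer (NK) cells. Its log2 intensity was 7.60, 7.30 and 7.13 on pancreas arrays 1 to 3, against 6.995, 7.502 and 7.682 on spleen arrays 1 to 3. The pancreas values lay wholly inside the spread of the spleen values. The difference was -0.05 ± 0.21 (SE), with an interval of -0.52 to 0.42, and its sign turned under some of the other settings. Within arrays, the log2 distance of Tbx21 over Eomes was 1.49 ± 0.31 (SE) larger in pancreas than in spleen (exact permutation p = 0.1, the smallest possible).

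**Figure D2:**
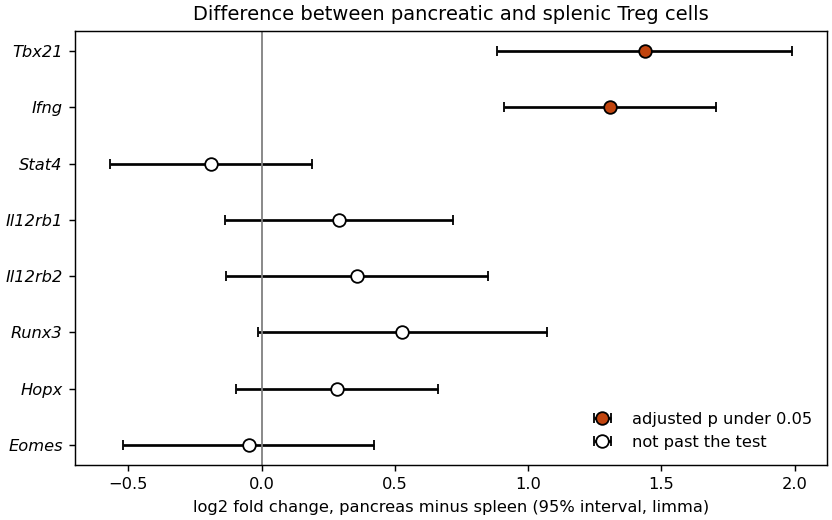
Log2 fold change of each gene, pancreas minus spleen, with its 95% interval from the limma fit over 6 arrays. Tbx21 (1.44) and Ifng (1.31) are filled as past the test, and the intervals of the other 6 genes include 0.

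The 28 pairs of members were also compared within arrays, by the difference between their log2 fold changes. For all 12 pairs of Tbx21 or Ifng with another member, that difference reached the smallest exact permutation p of 0.1 (0.175 after adjustment over the 28 pairs). It ranged from 0.78 for Ifng over Runx3 to 1.63 for Tbx21 over Stat4. Tbx21 and Ifng were already the only members whose arrays do not overlap, and the 12 pairs reuse them. The count of 12 therefore largely restates that result and is not separate support. Tbx21 and Ifng themselves differed by 0.13 ± 0.39 (SE, exact permutation p = 0.7), so their changes could not be told apart. Of the 16 pairs at the smallest p, the 4 others set Stat4 under Il12rb2 and Hopx, and Eomes under the IL-12 receptor chains, by 0.34 to 0.55. At 3 arrays a tissue none of these differences can reach 0.05 by this test.

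Array width moved with several members. The interquartile range of the log2 values was 2.23 on pancreas array 3 and 2.49 on spleen array 1, and 2.72 to 3.07 on the other arrays. Il12rb1, Il12rb2, Runx3 and Eomes, 4 of the 8 members, had their lowest pancreas value on that pancreas array and their lowest spleen value on that spleen array. Without those arrays, a setting chosen after seeing the data, Tbx21 was at 1.37 (adjusted p = 0.000995) and Ifng at 1.29 (adjusted p = 0.000660), and again 2 of 8 members passed.

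The genes whose pattern over the 6 arrays lay closest to these members were found by the root mean square difference of log2 values, after centring each gene on its own mean. The search covered 11204 genes above background, with predicted and clone-named genes left out. For Tbx21 the closest were Fgl2, a secreted suppressive protein of Treg cells (0.14), Ctsw, a protease of cytotoxic lymphocytes (0.18), Gatm, an enzyme of creatine synthesis (0.20), the chemokine receptor gene Cxcr3 (0.20) and the stress-response gene Ppp1r15a (0.22). For Ifng they were the microtubule regulator gene Stmn1 (0.08), Ticrr, a gene of replication initiation (0.12), the kinesin gene Kif15 (0.13), the DNA glycosylase gene Neil3 (0.13) and the linker histone gene H1f1 (0.13). Tbx21 peaked on pancreas array 2 and Ifng on pancreas array 1. Ifng and Tbx21 lay 0.40 apart by this measure, and Ifng stood at place 69 in the order of likeness to Tbx21, while Tbx21 stood at place 227 in the order of likeness to Ifng. Such lists over 6 arrays describe these libraries only, since the arrays share tissue, width and amplification.

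Among 16 measured genes that T-bet is linked with in effector lymphocytes, 6 rose in pancreas and 0 fell (0.547% and 0.132% of all genes). At an unadjusted limma p under 0.05, 9 were higher and 1 lower (3.2% and 3.64% of all genes). The median log2 fold change was 0.74, against -0.00 over all genes. The list was drawn up with earlier results of these arrays known. Cxcr3, a T-bet target that guides type 1 cells into inflamed tissue, had a log2 intensity of 10.99, 11.27 and 10.99 on pancreas arrays 1 to 3, against 9.59, 9.89 and 10.08 on spleen arrays 1 to 3. Its log2 fold change was 1.23 (adjusted p = 0.0148), close to that of Tbx21. The residency-associated chemokine receptor gene Cxcr6 (2.22), the granzyme gene Gzmk (1.95) and the granule gene Nkg7 (1.92) rose as well. So did the chemokine genes Ccl5 (2.08) and Ccl3, read above background on 1 of 3 spleen arrays, for which the difference was at least 6.77-fold. The perforin gene Prf1 was at -0.14 and the lymphotoxin gene Lta at -0.42 (adjusted p = 0.649), neither past the test. Over the 16 genes, 13 had the higher mean in pancreas and 3 the lower. Ctsw (1.42, limma adjusted p = 0.0736) and the granzyme gene Gzmb (0.78, 0.383) were higher without passing. So was the chemokine gene Ccl4, below background on all spleen arrays (at least 1.39-fold, 0.104). Leaving out single arrays gave counts of 4 to 8 for this group, scaling to 1 interquartile range gave 3, and raising low values to background gave 0. Array weights gave 9 higher and 1 lower, and leaving out the narrowest arrays gave 9 higher. The call of Cxcr3 was lost without pancreas array 2, spleen array 1 or spleen array 2 (adjusted p of 0.0855, 0.0523 and 0.0606), and that of Ccl5 without pancreas array 1 or 2 or spleen array 2 (0.0643, 0.0609 and 0.0535).

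Of 11 measured partners of T-bet and Runx3, 3 rose and 0 fell (0.547% and 0.132% of all genes). At an unadjusted limma p under 0.05, 4 were higher and 0 lower (3.2% and 3.64% of all genes). Their median was 0.10, against -0.00 over all genes. The 3 that rose were Prdm1, which encodes the repressor Blimp-1 (1.21, adjusted p = 0.0215), Id2, an inhibitor of E proteins (1.02, adjusted p = 0.0473), and Bhlhe40, a repressor that promotes Ifng in Th1 cells. Bhlhe40 was at least 3.51-fold higher (limma adjusted p = 0.0473), with 2 of 3 spleen arrays above background. Leaving out single arrays gave counts of 0 to 3 for this group. The count was 0 with median centring and with low values raised to background, and 1 with scaling, with the pseudocount and without marker genes of other cells (Id2 and Bhlhe40 then both at an adjusted p of 0.0512). With the replicate block Id2 was lost as well (adjusted p = 0.0840). None of these calls held without pancreas array 1, pancreas array 2, spleen array 1 or spleen array 2, and that of Prdm1 was also lost without spleen array 3 (adjusted p = 0.0595). The Runx subunit genes Runx1 (0.10) and Cbfb (-0.05) were not past the test, nor was the AP-1 gene Batf at 0.47 (adjusted p = 0.823). Twist1 and Zeb2 were below background on every array.

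Around the IL-12 receptor, none of the measured ligand and signalling genes passed the test. Of 6 measured ligand subunits of the IL-12 family and Il18, 0 passed by limma in either direction and 0 at an unadjusted p under 0.05. Il12a, Il23a and Il18 were below background on all 6 arrays, Il12b on 4 of them, while Ebi3 (0.22) and Il27 (-0.03) were above it. Of 9 genes of IL-12 and IL-18 receptor signalling, 0 passed, with 2 higher and 1 lower at an unadjusted limma p under 0.05 (3.2% and 3.64% of all genes). The accessory chain of the IL-18 receptor, Il18rap, was at 7.88, 7.52 and 7.17 on pancreas arrays 1 to 3, against 6.856, 7.004 and 6.817 on spleen arrays 1 to 3. Its difference of 0.63 did not pass (adjusted p = 0.337). Il18rap did pass in 3 of the 19 other settings, with array weights, without pancreas array 3 and without the narrowest arrays. Its partner Il18r1 was at 0.41, the IL-23 receptor gene Il23r at 0.31, and Il6st, the shared signalling chain gp130, at -0.53 (adjusted p = 0.608). The kinase genes Jak2 (-0.03) and Tyk2 (0.06), which serve the IL-12 receptor, lay near 0.

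On the receiving side of interferon gamma, 1 of 10 measured genes rose and 0 fell, with 2 higher and 1 lower at an unadjusted limma p under 0.05 (3.2% and 3.64% of all genes). The gene that rose was Irf8, a transcription factor induced by interferon gamma and also used by B cells, macrophages and dendritic cells. It was at 9.05, 9.31 and 9.08 on pancreas arrays 1 to 3, against 7.70, 8.17 and 8.08 on spleen arrays 1 to 3 (log2 fold change 1.16, adjusted p = 0.0183). Its call was lost without pancreas array 2 or without spleen array 1. The receptor chains ran in different directions without passing, with Ifngr1 at 0.41 (adjusted p = 0.614) and Ifngr2 at -0.70 (adjusted p = 0.348). Of 17 measured genes induced by interferon gamma, 0 passed, with 4 higher and 0 lower at an unadjusted limma p under 0.05 (3.2% and 3.64% of all genes), and their median was 0.12. This count moved with the setting. Array weights gave 5 higher, and testing only genes above background or leaving out the narrowest arrays gave 1 each. The remaining settings gave 0. The chemokine gene Cxcl9, below background on all spleen arrays, differed by at least 1.77-fold, with pancreas higher (adjusted p = 0.0871), and Cxcl10 was at 0.89 (adjusted p = 0.105). The class II transactivator gene Ciita (at least 1.36-fold higher, above background on 1 spleen array) and the guanylate-binding protein gene Gbp3 (0.43) did not pass, and neither did Gbp7 (0.12), Tap1 (0.04) and Nlrc5 (-0.03).

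Of 10 measured regulators that oppose the Th1 or effector state, 0 passed, with 3 lower and 0 higher at an unadjusted limma p under 0.05 (3.64% and 3.2% of all genes), and the median was -0.20. Bach2, a repressor of effector differentiation, was at 8.67, 8.36 and 7.83 on pancreas arrays 1 to 3, against 9.06, 9.43 and 9.44 on spleen arrays 1 to 3 (log2 fold change -1.02, adjusted p = 0.0951). Id3 (-0.90, adjusted p = 0.105) and Lef1 (-0.69, adjusted p = 0.116) also missed the threshold. With quantile normalization 3 genes of this group were lower and passed, as did 3 with array weights. Leaving out the narrowest arrays gave 2 lower, and scaling to 1 interquartile range or testing only genes above background gave 1 each. Gata3, the Th2 regulator, was at -0.08, and Zbtb7b, which encodes the CD4-lineage factor ThPOK that represses Runx3, was at -0.36 (adjusted p = 0.876).

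**Figure D3:**
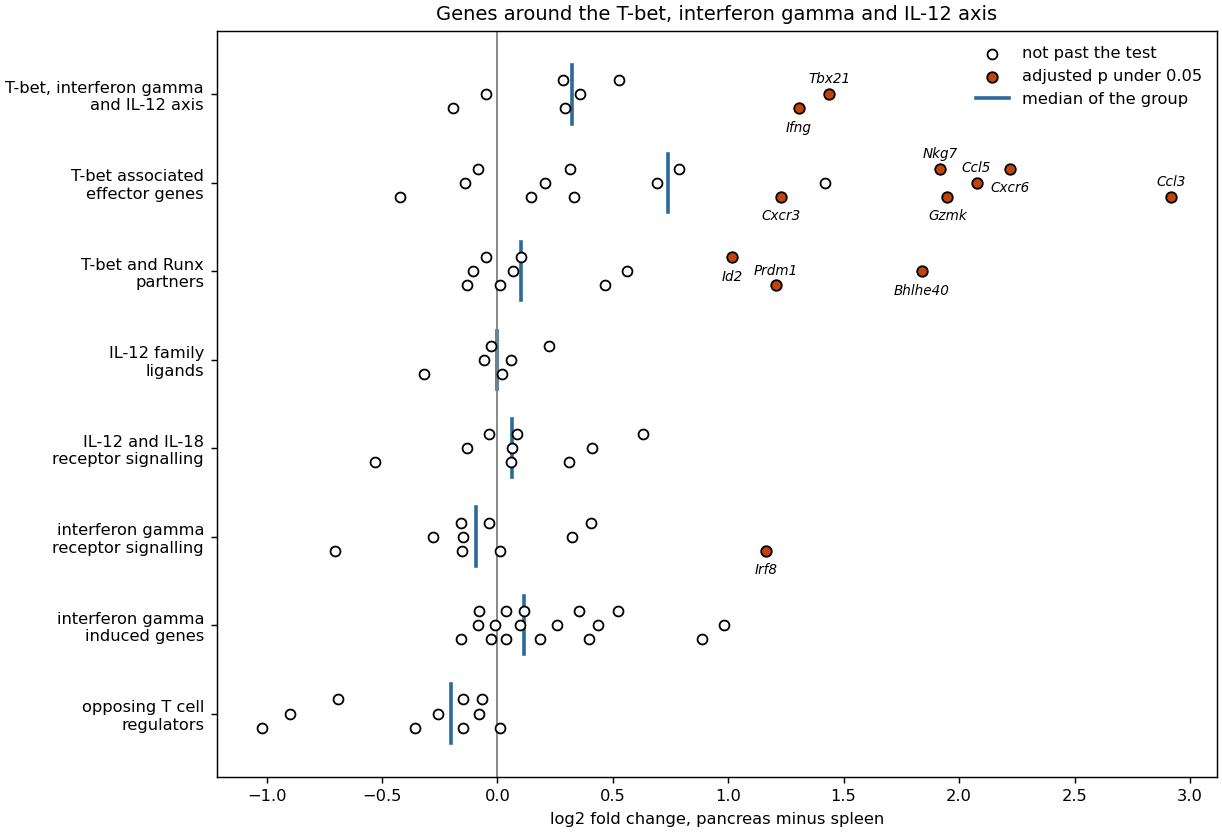
Log2 fold change, pancreas minus spleen, of each measured gene in the axis and in 7 groups of related genes, with filled points for an adjusted p under 0.05 and a blue bar for the median of the group. Filled points lie in the axis itself (Tbx21, Ifng), among the effector genes (6), among the partners (3) and at Irf8, all to the right of 0.

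The sorted population had its defining genes in both tissues. Foxp3 averaged 11.48 on the pancreas arrays and 11.52 on the spleen arrays (log2), and the T cell genes Cd3e (-0.10), Cd4 (-0.09) and Ptprc (-0.21) did not pass the test. Of 8 core Treg genes, Foxp3 among them, 0 rose and 1 fell (0.547% and 0.132% of all genes). At an unadjusted limma p under 0.05, 1 was higher and 1 lower (3.2% and 3.64% of all genes). The gene that fell was Gpr83, a G protein-coupled receptor gene used by Treg cells, at 9.79, 9.81 and 9.48 on pancreas arrays 1 to 3, against 10.70, 11.03 and 11.12 on spleen arrays 1 to 3 (log2 fold change -1.26, adjusted p = 0.0125). Its call was lost without spleen array 2 (adjusted p = 0.0642) or 3 (0.0526). The checkpoint receptor gene Ctla4 was at 0.60 (limma adjusted p = 0.318), and both genes were singled out after their values were seen. Among markers of other cells, every measured acinar and B cell gene had the higher mean in pancreas, while the other lists were mixed. The summed intensity of 14 CD8 T and NK cell markers, Eomes among them, was 916 to 1150 in pancreas and 844 to 927 in spleen. Of these 14, 9 were below background on all 6 arrays, among them the NK cell genes Ncr1 and Klrb1c, and Cd8a was at 0.01 and Cd8b1 at -0.02. Klrc1 (1.04, adjusted p = 0.0383) and Klrd1 (0.98, adjusted p = 0.0397) passed with every array below background, and these 2 genes were singled out after their values were seen. At an unadjusted limma p under 0.05, 6 of the 14 were higher and 1 lower, including Ncr1 (0.86) and Klrk1 (0.84), both below background on every array. The other named markers were Xcl1, above background on 1 spleen array (at least 1.66-fold higher, adjusted p = 0.104), and Gzmm, which did not pass.

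The 7 B cell markers summed to 855 to 1863 in pancreas and 601 to 733 in spleen, with 1 of 7 past the test, Cd79a (at least 2.91-fold higher, adjusted p = 0.0482). All 7 had the higher mean in pancreas and 6 of 7 were higher at an unadjusted limma p under 0.05, among them Ms4a1 (at least 2.89-fold higher, adjusted p = 0.0678). The 12 macrophage and dendritic cell markers summed to 964 to 1004 in pancreas and 711 to 795 in spleen, with 1 of 12 past the test, the lysozyme gene Lyz2 (at least 3.48-fold higher, adjusted p = 0.00134). Of these 12, 7 were below background on all arrays. Over all 12, the mean was higher in pancreas for 7 and lower for 5, with a median log2 fold change of 0.04. Cd68 was at 0.54 (limma adjusted p = 0.473) and C1qb at -0.09, neither past the test. The 10 acinar markers summed to 12224 to 24999 in pancreas and 915 to 2423 in spleen, and 9 of 10 passed, led by Ctrb1 (4.57), Clps (4.37) and Cpa1 (4.33). The 6 islet markers summed to 394 to 571 in pancreas and 419 to 503 in spleen, with 0 past the test by limma and 0 at an unadjusted p under 0.05. Among the pancreas arrays, array 2 had the highest Tbx21 value, the highest acinar sum and the lowest sums of B cell and of CD8 T and NK cell markers. Ifng had the same order over the pancreas arrays as the CD8 T and NK cell sum, highest on array 1 and lowest on array 2. On the spleen arrays the orders of Ifng and of that sum differed. There Ifng was highest on array 2 (127) and lowest on array 3 (93.1), while that sum was highest on array 3 (927) and lowest on array 1 (844). Tbx21 did have the order of the CD8 T and NK cell sum in spleen, at 125, 175 and 200 on arrays 1 to 3. The acinar sum was also highest on spleen array 3 (2423), and the B cell sum on spleen array 2 (733). The part of these cells in the values of Tbx21, Ifng and Irf8 was not tested.

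**Figure D4:**
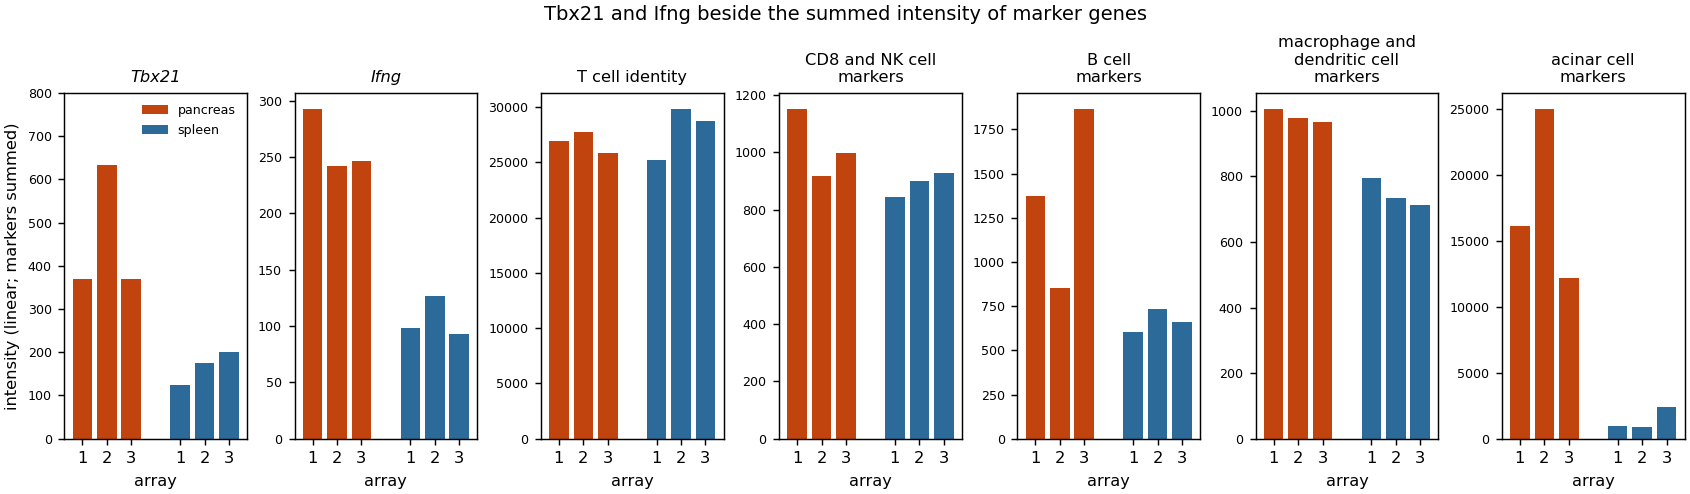
Intensity of Tbx21 and Ifng, and summed intensity of marker lists, on the pancreas arrays (red) and the spleen arrays (blue), on linear axes that start at 0. The lists are T cell identity, CD8 T and NK cell, B cell, macrophage and dendritic cell, and acinar. Islet markers are not drawn. The T cell identity genes sum to 25851 to 27757 in pancreas and 25245 to 29789 in spleen, while the acinar sum is many times higher in pancreas and the other marker sums differ less.

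**Figure D5:**
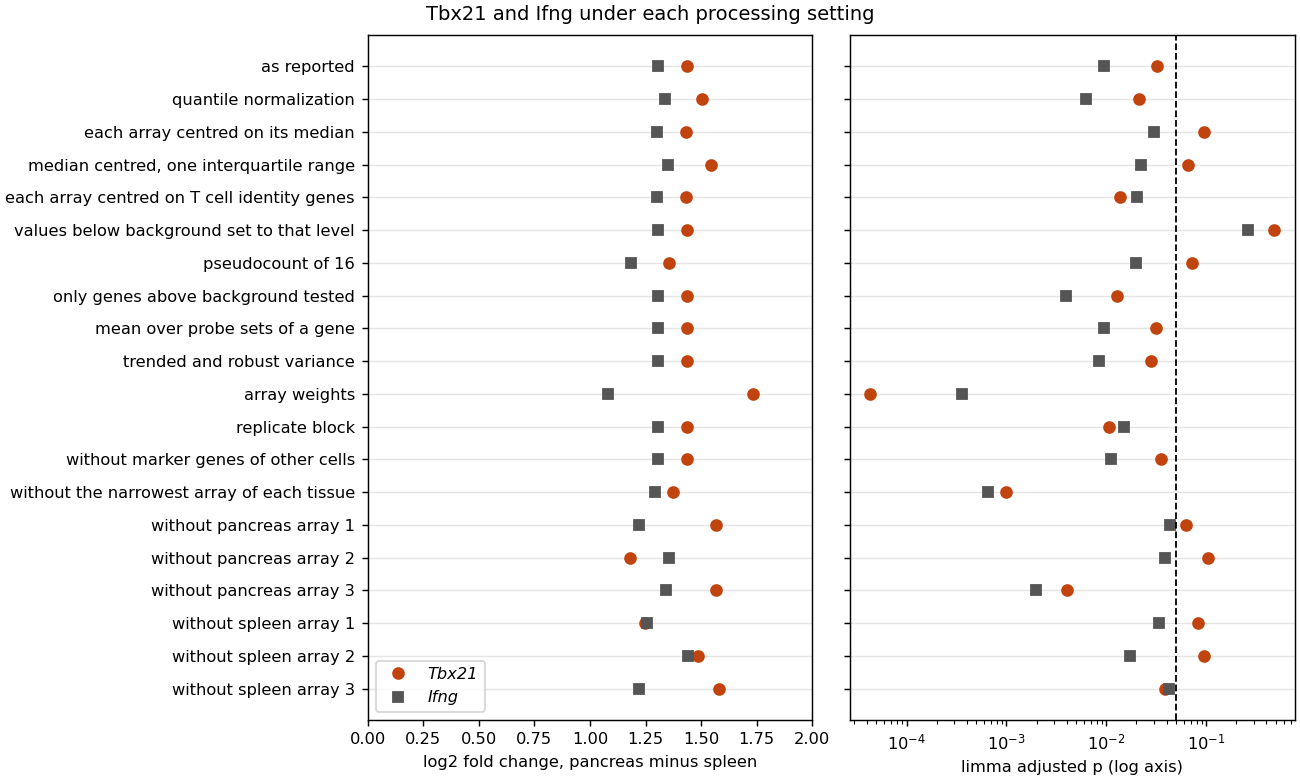
Log2 fold change (left) and limma adjusted p on a log axis (right) of Tbx21 and Ifng as reported and under each other setting, with the threshold of 0.05 as a dashed line. The fold changes lie between 1.08 and 1.73 throughout, Ifng lies left of the threshold in 18 of the 19 other settings and Tbx21 in 11.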

How the data were processed

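The authors deposited 1 intensity per probe set and array on a linear scale. Per the submitters' processing notes these came from RMA, run in Affymetrix Power Tools, and no version is stated. Their medians ranged from 82.0 to 92.0, so the arrays do not share 1 distribution. They were taken to log2 without a pseudocount. Of 24922 probe sets, 21425 name exactly 1 gene in the platform annotation, and the probe set with the highest mean was kept where a gene had several, which left 19752 genes.

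All genes were fitted with limma 3.58.1 in R 4.3.3 (lmFit, eBayes, 6 arrays, no covariates), pancreas minus spleen, and the fit was tested on simulated data. Folds with lower-tissue arrays below background are lower bounds, with those arrays raised to that level. Single values had exact permutation tests over arrays (Python 3.11.15). The members and gene lists were chosen with earlier results of these data known, and the text names all members, up to 4 genes above background with the smallest p per pathway list plus any past the test, up to 3 per marker list, and the closest patterns. Other genes are named as further values of a list. Array weights used limma's gene-by-gene method, since the default did not converge. The weights were 3.15 for pancreas array 2, 4.01 for spleen array 2 and 0.336 to 0.965 for the others, so 1 array of each tissue dominates that fit.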

Additional observations from a re-analysis of the deposited data

How the results depend on the processing

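The settings were quantile normalization, 3 ways of centring arrays, background, a pseudocount of 16, dim genes, probe sets, variance, array weights, the replicate number as a block, marker genes, width and each array left out. Il12rb1, Il12rb2 and Runx3 kept their direction and did not pass in any of them (Il12rb2 has no value where dim genes were left out). Ifng passed in 18 of 19 and Tbx21 in 11 of 19. The call of Tbx21 was lost with each array centred on its median (1.43), also scaled to 1 interquartile range (1.55), and with the pseudocount (1.35), each leaving 1 member past the test. With low values raised to the background level, 0 members passed, with Tbx21 at 1.44 and Ifng at 1.31 as before. Both lie above background on all arrays, and the prior degrees of freedom went from 6.58 to 0.353 in that fit. With array weights Hopx passed (0.47). Eomes turned to 0.0076 with quantile normalization, Stat4 to 0.0094 with scaling, and Il27 to 0.0295 with quantile normalization, 0.0186 with scaling and 0.0014 without the narrowest arrays.

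The 134 genes past the test became 212 with quantile normalization, 64 with median centring, 66 with scaling, 3 with the background floor, 84 with the pseudocount, 1684 with array weights and 347 without the narrowest arrays. With 1 array left out the count was lowest (64) when spleen array 1 was dropped and highest (262) when pancreas array 3 was, members past the test ran from 1 to 2, Tbx21 from 1.18 to 1.58, Eomes from -0.25 to 0.10 and Il27 from -0.17 to 0.14. With the replicate block, which the labels do not explain, 132 genes passed, Tbx21 (limma adjusted p = 0.0107) and Ifng (0.0151) among them, and it changed no other member's call. Deviations of same-numbered arrays correlated at -0.465, 0.115 and -0.677. The highest correlations joined the widest arrays, pancreas 1 and spleen 3 (0.508), and the narrowest, pancreas 3 and spleen 1 (0.647). Since width enters these values, they cannot decide whether the numbers pair the tissues. The causes of the shifts between settings were not tested. Signal near background limits Il12rb2.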
